A study of Mus musculus with 21 samples.

Results

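The genes described here are 9 mouse genes of the regulator of G-protein signalling (RGS) family, Rgs1, Rgs2, Rgs3, Rgs10, Rgs12, Rgs14, Rgs16, Rgs18 and Rgs19, out of 37734 genes with values in every library. They were picked by gene name, and the choice was made with their levels in these samples already known, so their levels and differences are a description. Where members past the criteria used for all genes are counted, the count supports nothing beyond that description. All 9 passed the filter on low values used for the fits (at least 10 normalised reads in at least 3 samples), Rgs16 only through the mature samples.

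Receptors that couple to heterotrimeric G proteins, chemokine receptors among them, switch on a G protein by loading its alpha subunit with GTP, and the signal ends when the alpha subunit hydrolyses that GTP. RGS proteins carry a domain that speeds up this hydrolysis and so shorten the signal of alpha subunits of the Gi and Gq families. Dendritic cells leave their immature state by switching receptors and moving along chemokine gradients, and several RGS genes are known to be expressed in leukocytes.

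The study sequenced mRNA of conventional dendritic cells (cDC) of C57BL/6 mice aged 6 to 8 weeks and asked how tissue and maturation bear on them. cDC1 (CD24+ CD11b- CD11c+) and cDC2 (CD24- CD11b+ CD11c+), both B220-, were sorted from CD11c-enriched cells of pooled organs. Immature cells were CCR7- Esam- and came from the spleen or the thymus, and mature cells were CCR7+ Esam+ and came from the thymus, so Ccr7 and Esam are the sort gate and not a finding. Mature splenic cells were not analysed here. The groups held 4 samples of splenic immature cDC1 (5 libraries), 4 of thymic immature cDC1, and 3 each of thymic mature cDC1, splenic immature cDC2, thymic immature cDC2 and thymic mature cDC2. Splenic immature cDC1 replicates 4 and 5 shared a library number in the labels and differed far less than any other pair of that group, so their mean was used as 1 sample. Thymic immature cDC1 replicates 3 and 4 also shared a lane and a library number but differed as much as other pairs of their group, and were kept as separate samples. The sources do not say that replicates came from separate pools of mice, so the spread between them may be partly technical.

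The values are normalised read counts, that is reads per gene divided by a factor for each library. Libraries held 14266867 to 40119669 reads assigned to genes. The summed level of 6 cDC1 markers (Xcr1, Clec9a, Cadm1, Irf8, Batf3, Tlr3) was 84504 to 96266 in splenic immature cDC1 and 3009 to 4330 in splenic immature cDC2, whereas that of 5 cDC2 markers (Sirpa, Itgam, Irf4, Clec4a4, Csf1r) was 2891 to 4489 and 39462 to 55440. In mature cells the cDC1 sum was 40321 to 43806 in cDC1 and 14300 to 22358 in cDC2. Itgam, which encodes CD11b, was listed at 0 in the 3 mature cDC1 samples. Both mature groups were sequenced on lane 8 only, so beside the pooled differences those among lane 8 libraries are given where they changed the picture. In the labels, however, some mature and immature thymic libraries of lane 8 shared an index sequence under different library numbers. Libraries of a single run need different index sequences, so lane 8 may cover several runs. The lane 8 differences therefore do not separate maturation from sequencing run, and the part of the run was not tested.

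The genes lie on 6 chromosomes (mm10, GENCODE vM21 gene models). Rgs2 (chr1:143999338-144004161), Rgs1 (chr1:144242296-144249242) and Rgs18 (chr1:144752683-144775435) sit on the minus strand of chromosome 1 within a span of 776 kb whose only other protein-coding genes are Rgs13 and Rgs21, and 238 kb separate Rgs2 from Rgs1. Rgs16 (chr1:153740349-153745468, plus strand) is farther along the same chromosome. Rgs3 (chr4:62559847-62704001), Rgs12 (chr5:34949445-35039644) and Rgs14 (chr13:55369732-55384687) are on plus strands, and Rgs10 (chr7:128373621-128418758) and Rgs19 (chr2:181688419-181693977) on minus strands. The neighbours did not share a direction, as the levels below show. Exons of Rgs16 and Rgs12 overlap exons of Gm28513 and Gm43791 on the opposite strand by 236 and 467 bases. The library kit kept the strand, but the strand setting of the counting is not given in the sources used here.

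Mature and immature thymic cells differed most in these genes. In cDC1, 4 members (Rgs1, Rgs3, Rgs12 and Rgs16) were higher in mature cells and 3 (Rgs2, Rgs14 and Rgs18) were lower by the criteria used for all genes, an adjusted p under 0.1 in limma and a log2 difference of at least 1. In cDC2 the counts were also 4 higher (Rgs1, Rgs3, Rgs10 and Rgs16) and 3 lower (Rgs2, Rgs14 and Rgs18). Of the 14970 genes tested, 21.3% were higher and 24.5% lower in mature cDC1, and 18.6% were higher and 17.0% lower in mature cDC2. The median log2 difference of the 9 members was 0.65 in cDC1 and 0.65 in cDC2, beside -0.04 and 0.04 over all genes tested. Because the members were selected on these values, the counts are a description of the choice.

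**Figure D1:**
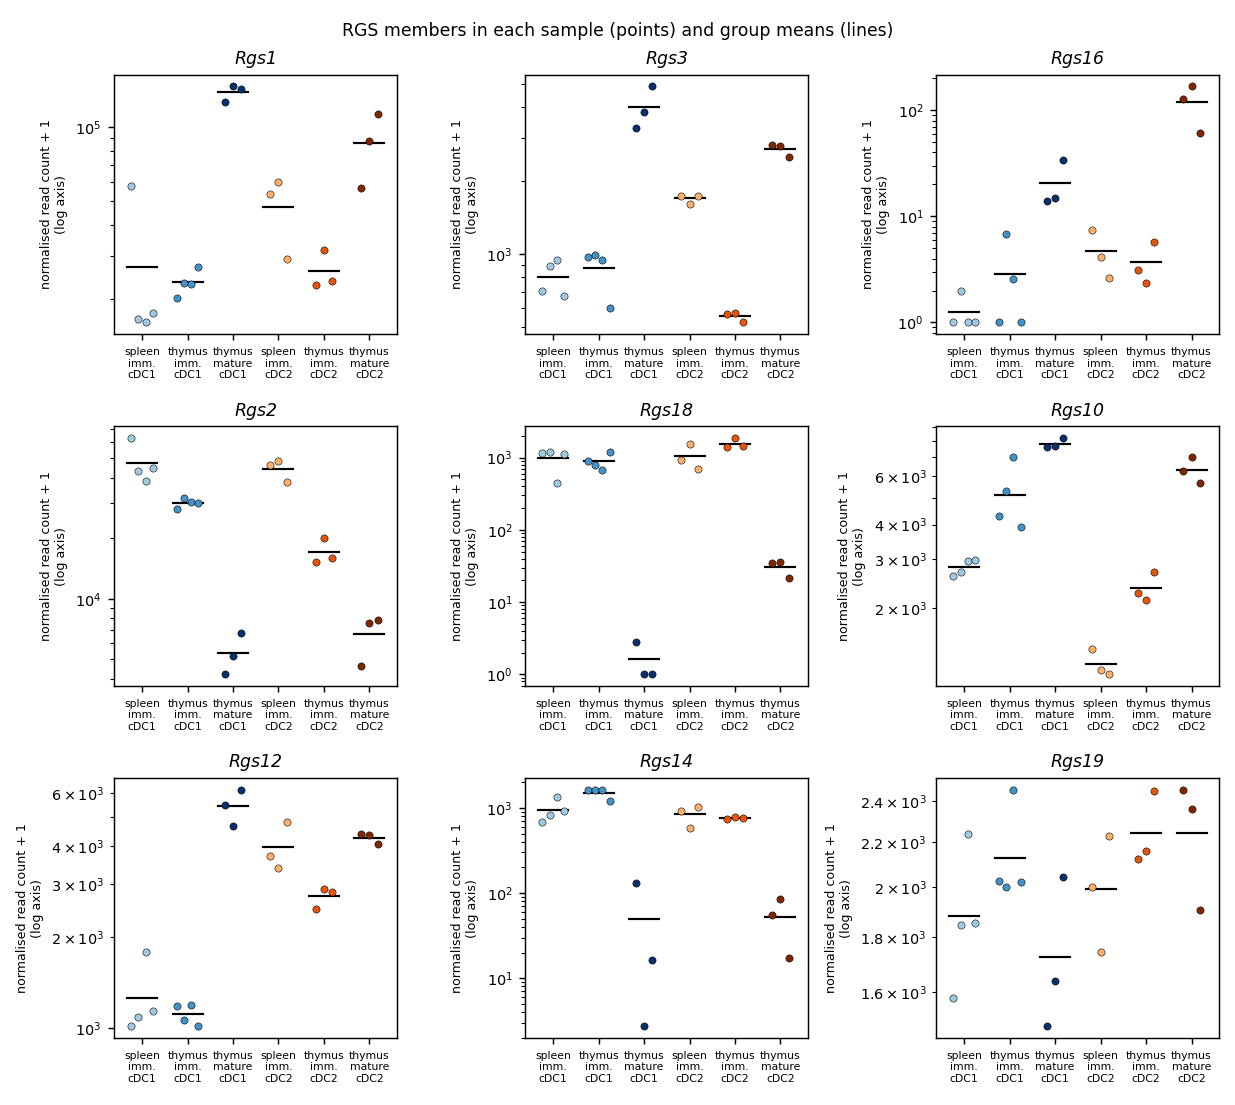
Normalised read counts plus 1, on a log axis, of the 9 RGS genes in each of 20 samples (points) with the group means (lines), for splenic and thymic immature and thymic mature cDC1 (blue) and cDC2 (orange). Mature samples lie above the thymic immature ones for Rgs1, Rgs3, Rgs10, Rgs12 and Rgs16, below them for Rgs2, Rgs14 and Rgs18, and among them for Rgs19.

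In the R4 subfamily, small RGS proteins with little outside the RGS domain, Rgs1 was the most abundant member in mature cells. Rgs1 dampens chemokine receptor signalling in lymphocytes. Its normalised read counts were 20110, 23250, 23099 and 26916 in thymic immature cDC1 and 126673, 146635 and 143619 in thymic mature cDC1, a 5.95-fold higher mean in mature cells with no overlap (log2 difference 2.58 ± 0.36, SE). In cDC2 it read 22824, 31497 and 23580 in thymic immature and 56383, 87834 and 113313 in thymic mature samples, again without overlap, with a mean 3.31-fold higher in mature cells (log2 difference 1.68 ± 0.38). Rgs1 ranked between 8 and 13 among all genes by normalised read count in the 3 mature cDC1 samples, and between 59 and 120 in the 4 thymic immature ones.

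Among immature cells Rgs1 was uneven. The 4 splenic immature cDC1 samples gave 57394, 16572, 16031 and 17543, so replicate 1 stood far above the other three, and the 3 splenic immature cDC2 samples gave 53452, 59846 and 29077. The log2 difference between splenic cDC2 and cDC1 was 0.99 ± 0.36, and 1.44, past the criteria, without splenic immature cDC1 replicate 1. From the highest mean to the lowest, the order was mature cDC1, mature cDC2, splenic cDC2, splenic cDC1, thymic immature cDC2 and thymic immature cDC1, and every pair of neighbours after the first overlapped.

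Rgs2, which acts mainly on Gq alpha subunits and also restrains adenylyl cyclase, was lower in mature cells. It read 27962, 31540, 30130 and 29959 in thymic immature cDC1 and 4216, 5192 and 6727 in thymic mature cDC1, a mean 5.56-fold lower in mature cells (log2 difference -2.50 ± 0.21). In cDC2 it was 15282, 19993 and 15989 in thymic immature and 4661, 7573 and 7846 in thymic mature samples, 2.55-fold lower (log2 difference -1.38 ± 0.22). Neither pair of groups overlapped. Rgs2 was highest in the spleen, with 62712, 43039, 38283 and 44730 in splenic immature cDC1 and 46207, 48172 and 37946 in splenic immature cDC2, which overlapped each other. The thymic immature samples of both lineages lay below every splenic one, by 1.58-fold in cDC1 (log2 difference -0.63 ± 0.19) and 2.58-fold in cDC2 (-1.37 ± 0.22).

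The ratio of Rgs1 to Rgs2 within each library does not depend on the scaling between libraries. In cDC1 it crossed 1 between immature and mature thymic cells, whereas in thymic cDC2 Rgs1 was above Rgs2 in both. The Rgs1 to Rgs2 ratio of normalised read counts was 0.719, 0.737, 0.767 and 0.898 in thymic immature cDC1 and 30.0, 28.2 and 21.4 in thymic mature cDC1. In cDC2 it was 1.49, 1.58 and 1.47 in thymic immature and 12.1, 11.6 and 14.4 in thymic mature samples. Every mature sample was above 10 and every immature sample below 2. In the spleen the ratio was 0.915, 0.385, 0.419 and 0.392 in cDC1 and 1.16, 1.24 and 0.766 in cDC2. Of the summed normalised reads of the 9 members, Rgs1 took 83.7 to 86.4% in mature cDC1 and 73.1 to 83.7% in mature cDC2, whereas Rgs2 took 49.1 to 63.1% in splenic immature cDC1.

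**Figure D2:**
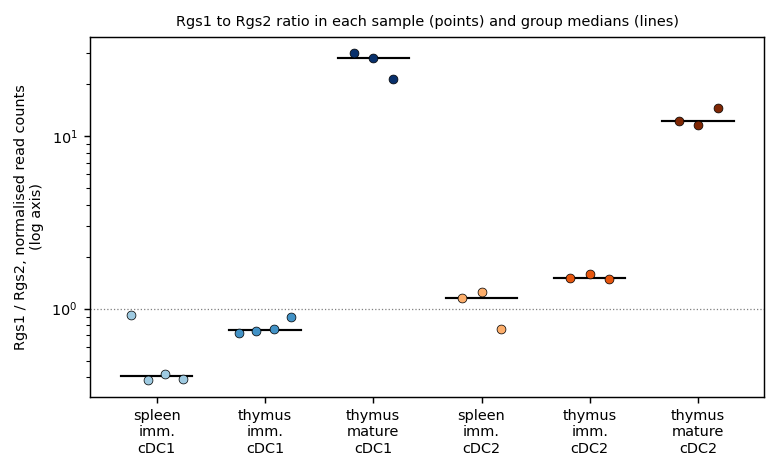
Ratio of Rgs1 to Rgs2 normalised read counts, on a log axis, in each of 20 samples (points) with group medians (lines) and a dotted line at 1. The 6 mature samples sit between 11.6 and 30.0, and the 14 immature samples between 0.385 and 1.58.

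Rgs3, a regulator of Gi and Gq alpha subunits with long and short forms, was higher in mature cells of both lineages by almost the same amount. It read 969.8, 989, 939 and 597 in thymic immature cDC1 and 3276, 3823 and 4872 in thymic mature cDC1 (log2 difference 2.20 ± 0.18). In cDC2 it read 567, 573 and 522 in thymic immature and 2791, 2762 and 2490 in thymic mature samples (log2 difference 2.27 ± 0.19). Among immature cells it was set apart by splenic cDC2, where the 3 samples gave 1735, 1599 and 1729, all above the 4 splenic cDC1 samples (703, 894, 942 and 672) and the thymic cDC2 samples. The thymus was thus 3.05-fold below the spleen in immature cDC2 (log2 difference -1.61 ± 0.19) and overlapped it in immature cDC1 (0.11 ± 0.16).

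Rgs16, known as a gene induced in activated lymphocytes, was close to absent before maturation. It was counted by 0, 1, 0 and 0 reads in splenic immature cDC1, 0, 7, 1 and 0 in thymic immature cDC1, 7, 5 and 1 in splenic immature cDC2 and 2, 2 and 3 in thymic immature cDC2. In mature cells it read 12.9, 13.9 and 32.8 normalised reads in cDC1 and 126, 167 and 59.6 in cDC2, and the mature cDC2 samples lay above the mature cDC1 ones without overlap, 5.92-fold by their means. The log2 differences between mature and immature cells were 3.22 ± 0.67 in cDC1 and 4.97 ± 0.72 in cDC2 on the log2(value + 1) scale, which understates changes from near 0, and with a pseudocount of 0.1 or 8 in place of 1 the cDC1 value was 5.02 or 1.47. Splenic cDC2 held 13 Rgs16 reads and splenic cDC1 1, a ratio per normalised unit of 22.3 with an exact 95% interval of 3.35 to 947 that covers counting error only.

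Rgs18, best known from platelets and megakaryocytes, was nearly lost in mature cDC1. It read 899, 798, 663 and 1209 in thymic immature cDC1, and the 3 mature cDC1 samples held 1, 0 and 0 reads. The immature cells thus had 2151 times more per normalised unit, with an exact 95% interval of 386 to 84970 from 3643 against 1 read. The fitted log2 difference was -9.27 ± 0.40, and -11.66 or -6.68 with a pseudocount of 0.1 or 8. In cDC2 the thymic immature samples gave 1385, 1852 and 1442 and the mature ones 33.8, 34.8 and 20.4, a 52.6-fold lower mean (log2 difference -5.70 ± 0.43). The remaining level in mature cDC2 was above that of mature cDC1 in each sample. In the spleen Rgs18 was 1138, 1208, 437 and 1135 in cDC1 and 911, 1528 and 704 in cDC2, with replicate 3 of cDC1 below the rest. The 6 platelet and megakaryocyte markers (Pf4, Ppbp, Itga2b, Gp9, Gp1bb, Treml1) summed to 20.2 to 48.3 in thymic immature cDC1 and 24.9 to 45.9 in thymic immature cDC2. In mature cells the sums were 3.69 to 29.6 in cDC1 and 56.5 to 70.6 in cDC2, and in the spleen 41.2 to 81.3 and 13.7 to 34.8. Gp1bb and Treml1 were listed at 0 in all 6 groups. Of the 2087 exon bases of Gp1bb, 1902 overlap Sept5 on the same strand, where counting may assign reads to neither gene. Its 0 therefore says little. The part of platelet RNA in the Rgs18 levels was not tested.

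Promoter windows of the R4 subfamily are printed because its members took opposite directions with maturation. RefSeq windows (GRCm38.p6, 250 bases before to 50 after a start) matched 6 of the 9 members with 10 windows, and Rgs1, Rgs14 and Rgs18 had no entry. Capitals mark letter matches on either strand. The motifs searched were the TATA box, spelled TATAAA, the box named for its letters CCAAT, and the GC box, spelled GGGCGG. The cyclic AMP response element was searched whole as TGACGTCA and by its shorter core TGACG, which the whole contains. Further motifs were the AP-1 site, spelled TGANTCA, the core bound by PU.1, spelled GAGGAAG, the E box, spelled CACGTG, and the kappaB consensus. The windows are Rgs2 (chr1:144004100-144004399, minus strand), Rgs3 from an upstream start (chr4:62559597-62559896, plus strand) and a downstream start (chr4:62619422-62619721, plus strand), and Rgs16 (chr1:153740103-153740402, plus strand).
Rgs2: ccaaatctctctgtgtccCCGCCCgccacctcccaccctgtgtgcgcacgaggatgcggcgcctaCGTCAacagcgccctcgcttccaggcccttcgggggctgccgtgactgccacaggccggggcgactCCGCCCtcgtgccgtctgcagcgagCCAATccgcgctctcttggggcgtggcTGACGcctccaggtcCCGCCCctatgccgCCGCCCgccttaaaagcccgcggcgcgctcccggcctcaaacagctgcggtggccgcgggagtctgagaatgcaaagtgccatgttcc
Rgs3 upstream: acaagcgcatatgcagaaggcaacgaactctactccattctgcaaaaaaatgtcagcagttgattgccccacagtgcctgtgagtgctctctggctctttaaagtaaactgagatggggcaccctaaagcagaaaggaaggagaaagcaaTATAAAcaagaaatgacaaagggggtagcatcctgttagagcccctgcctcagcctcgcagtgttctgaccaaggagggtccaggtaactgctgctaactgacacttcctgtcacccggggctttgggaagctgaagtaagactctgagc
Rgs3 downstream: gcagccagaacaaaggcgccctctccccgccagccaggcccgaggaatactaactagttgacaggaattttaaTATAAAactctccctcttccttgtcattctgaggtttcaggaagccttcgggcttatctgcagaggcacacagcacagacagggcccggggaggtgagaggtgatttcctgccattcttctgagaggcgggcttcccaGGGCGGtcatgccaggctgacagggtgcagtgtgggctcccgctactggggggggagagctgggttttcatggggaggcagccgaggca
Rgs16: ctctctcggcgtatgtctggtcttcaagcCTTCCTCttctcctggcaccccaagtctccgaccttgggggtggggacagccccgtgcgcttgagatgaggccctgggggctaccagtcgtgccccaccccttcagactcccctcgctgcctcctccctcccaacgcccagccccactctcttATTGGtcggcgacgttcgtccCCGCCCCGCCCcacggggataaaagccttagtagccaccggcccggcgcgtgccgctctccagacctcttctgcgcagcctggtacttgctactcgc

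The Rgs2 window held 4 GC boxes, 1 CCAAT box and 2 cores of the cyclic AMP response element, 1 on each strand. The Rgs16 window held 2 overlapping GC boxes, 1 CCAAT box and 1 PU.1 core on the opposite strand. Both Rgs3 windows held the letters TATAAA and the downstream one also a GC box. The TATAAA match lay at bases -100 to -95 from the start in the upstream window and -177 to -172 in the downstream one. Of all 32851 windows of this length, 35.7% held a GC box, 37.4% a CCAAT box, 20.8% the TGACG core, 13.6% a PU.1 core and 13.6% a TATA box. The full TGACGTCA was in 1.79%, an AP-1 site in 7.81%, a kappaB match in 8.46% and an E box in 7.15% of all windows, and none of these was in the 4 printed ones. The matches describe letters and no binding was measured.

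The R12 subfamily split in another way. Rgs10, a small regulator that acts on Gi alpha subunits, read 4311, 5310, 6997 and 3924 in thymic immature cDC1 and 7654, 7674 and 8202 in thymic mature cDC1, a log2 difference of 0.65 ± 0.16, under the criterion of 1. In cDC2 it read 2268, 2145 and 2695 in thymic immature and 6250, 7035 and 5667 in thymic mature samples, 2.67-fold higher (log2 difference 1.42 ± 0.17). Mature samples lay above immature ones in both lineages. In the spleen it was 2613, 2705, 2968 and 2991 in cDC1 and 1417, 1198 and 1152 in cDC2. Rgs10 was therefore lowest in splenic cDC2, higher in the thymus than in the spleen in both lineages without overlap, and higher in cDC1 than in cDC2 at each site.

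Rgs12, a large protein that carries a GoLoco motif which holds Gi alpha subunits in their GDP form, ran opposite to Rgs10 between the lineages among immature cells. It read 1013, 1084, 1783 and 1137 in splenic immature cDC1 and 3699, 3392 and 4807 in splenic immature cDC2. In the thymus it was 1184, 1060, 1194 and 1018 in immature cDC1 and 2475, 2895 and 2829 in immature cDC2. All cDC2 samples were above all cDC1 samples at both sites, 3.16-fold in the spleen (log2 difference 1.68 ± 0.17) and 2.45-fold in the thymus (1.29 ± 0.17). In mature cells the order turned, with 5473, 4677 and 6133 in cDC1 and 4375, 4356 and 4081 in cDC2, again without overlap (log2 difference -0.34 ± 0.18). The difference between mature and immature cells was 2.28 ± 0.17 on the log2 scale in cDC1 and 0.65 ± 0.18 in cDC2.

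Rgs14, which also carries a GoLoco motif and binds Ras family proteins, was lower in mature cells. It read 1616, 1614, 1621 and 1205 in thymic immature cDC1 and 131, 1.73 and 15.2 in thymic mature cDC1, from 71, 1 and 19 reads, a mean 30.7-fold lower. That mean rests mostly on mature replicate 1, and the fitted log2 difference was -6.38 ± 0.77, and -7.82 without that replicate. In cDC2 it read 739.8, 788 and 757 in thymic immature and 53.7, 84.9 and 16.5 in thymic mature samples, 14.7-fold lower. The mature cDC1 samples differed widely among themselves, and the log2 difference between mature cDC2 and cDC1 was 1.27 ± 0.83, between -0.09 without mature cDC1 replicate 2 and 2.71 without mature cDC1 replicate 1. Among immature cells thymic cDC1 had the highest mean, 1514 ± 206 (SD, n = 4), and the splenic groups overlapped at 677 to 1336 in cDC1 and 579.8 to 1025 in cDC2.

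Rgs19, of the RZ subfamily, a regulator of Gi alpha subunits linked to vesicle transport, hardly varied. Its group means lay between 1723 ± 287 in mature cDC1 and 2244 ± 180.0 in thymic immature cDC2 (SD, n = 3 each). All neighbours in the order of the means overlapped. Its 7 log2 differences lay between -0.31 and 0.38, the first for mature against immature cDC1 and the second for mature cDC2 against mature cDC1.

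**Figure D3:**
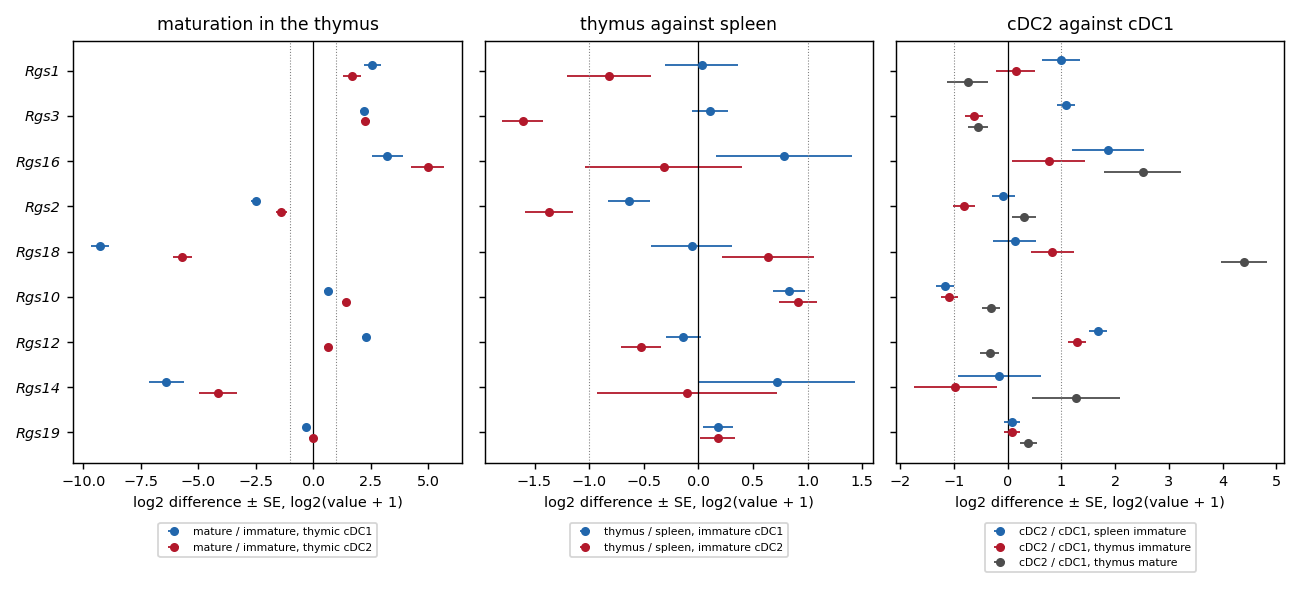
Log2 differences of the 9 RGS genes with their standard errors on the log2(value + 1) scale for maturation in the thymus (left), thymus against spleen in immature cells (middle) and cDC2 against cDC1 (right), with dotted lines at 1 and -1. The maturation panel runs from -9.27 for Rgs18 to 4.97 for Rgs16, a far wider range than the middle panel.

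As a description, the difference of the maturation effect, cDC2 minus cDC1 on the log2 scale, was 3.57 ± 0.58 for Rgs18, 1.12 ± 0.30 for Rgs2 and -1.63 ± 0.25 for Rgs12. These 3 were past the criteria, as were 13.6% of all genes tested. Rgs3 differed by 0.07 ± 0.26 and Rgs1 by -0.90 ± 0.53. For Rgs18 the value in cDC1 rests on 1 read in the mature group and shifts with the pseudocount. For the difference of the tissue effect, Rgs3 alone passed, at -1.72 ± 0.25, beside 4.98% of all genes tested.

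Between thymus and spleen the members differed less. In immature cDC1 the 9 log2 differences lay between -0.63 for Rgs2 and 0.83 for Rgs10, all within the criterion of 1, and over all genes 4.26% were higher and 4.52% lower in the thymus. In immature cDC2, 2 members were lower in the thymus (Rgs2 and Rgs3) and none was higher, beside 8.3% of all genes higher and 5.87% lower. The value for Rgs1 in cDC2 was -0.82 ± 0.38, and -0.09 among the lane 8 libraries alone, where a single splenic cDC2 library remains. Rgs10 was higher in the thymus by 0.83 ± 0.15 in cDC1 and 0.91 ± 0.17 in cDC2 on the log2 scale. Markers of other cells moved with tissue in cDC2. From spleen to thymus the summed 5 plasmacytoid dendritic cell markers (Siglech, Bst2, Tcf4, Ly6d, Klk1) were 3119 to 3772 and 9978 to 11440 and the 4 natural killer cell markers (Ncr1, Klrb1c, Prf1, Gzma) 111 to 181 and 3.35 to 7.47. In cDC1 the plasmacytoid sums were 2461 to 2880 and 4285 to 5047. Most of that rise was Bst2, with means of 904 in splenic and 3019 in thymic immature cDC1. Siglech (301 and 414), Ly6d (7.37 and 12.3) and Klk1 (2.31 and 7.31) were also higher in the thymus, and Tcf4 was lower (1478 and 1228). The part of these other cells in the RGS levels was not tested.

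Between the lineages, splenic immature cDC2 had 3 members higher than cDC1 (Rgs3, Rgs12 and Rgs16) and 1 lower (Rgs10), beside 9.93% and 6.7% of all genes. For Rgs16 this rests on 13 reads against 1, with every splenic sample under the filter value of 10, and 27 of 31 alternatives kept it. Thymic immature cDC2 had 1 higher (Rgs12) and 1 lower (Rgs10), beside 11.0% and 5.42%. Mature cDC2 had 2 higher (Rgs16 and Rgs18) and none lower, beside 14.6% and 4.36%. Rgs3 changed side, higher in cDC2 in the spleen (1.09 ± 0.18) and lower among thymic immature cells (-0.63 ± 0.18). Summed macrophage markers (C1qa, C1qb, C1qc, Mertk, Adgre1, Fcgr1) moved with the lineage, 302 to 460.3 in thymic immature cDC1 and 6654 to 9735 in thymic immature cDC2, and 86.7 to 513 and 2173 to 14648 in mature cells. Their part in the RGS levels was not tested.

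T cell and thymocyte markers moved with maturation and tissue. The 8 markers (Cd3d, Cd3e, Cd3g, Lck, Bcl11b, Themis, Rag1, Cd8b1) summed to 48.4 to 83.8 in splenic immature cDC1, 187 to 258 in thymic immature cDC1 and 1369 to 2584 in thymic mature cDC1. In cDC2 the sums were 35.0 to 86.0, 187 to 305 and 829 to 1366. All 8 were above 0 in every thymic sample, whereas Bcl11b and Themis were at 0 in all splenic cDC1 samples and Rag1 in all splenic cDC2 samples. T cells express several RGS genes, and the part of such RNA in the maturation differences was not tested. In sorted bulk samples, fewer cells of a type and less RNA per cell cannot be told apart. The summed maturation markers (Ccr7, Esam, Fscn1, Ccl22, Cd83, Cd40) were 17480 to 20256 in thymic immature and 436533 to 580173 in thymic mature cDC1.

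Levels of different genes were compared per kilobase of the principal annotated transcript. In thymic mature cDC1, Rgs1 led with a mean of 36182 normalised reads per kilobase, followed by Rgs10 at 8913, Rgs2 at 1780, Rgs19 at 1140, Rgs3 at 1026 and Rgs12 at 992. In thymic immature cDC1 the order was Rgs2 at 9897, Rgs1 at 6078, Rgs10 at 5836 and Rgs19 at 1407 per kilobase, above the other members. In splenic immature cDC2, Rgs2 (14601) and Rgs1 (12356) stood far above the next, Rgs10 (1427). Rgs16 was the lowest member per kilobase in the 4 immature groups, and in mature cells it was above Rgs18 in cDC1 and above Rgs18 and Rgs14 in cDC2. Transcript choice moves these values, most of all for Rgs3, whose exon models together span 10801 bases against 3888 in its principal transcript.

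**Figure D4:**
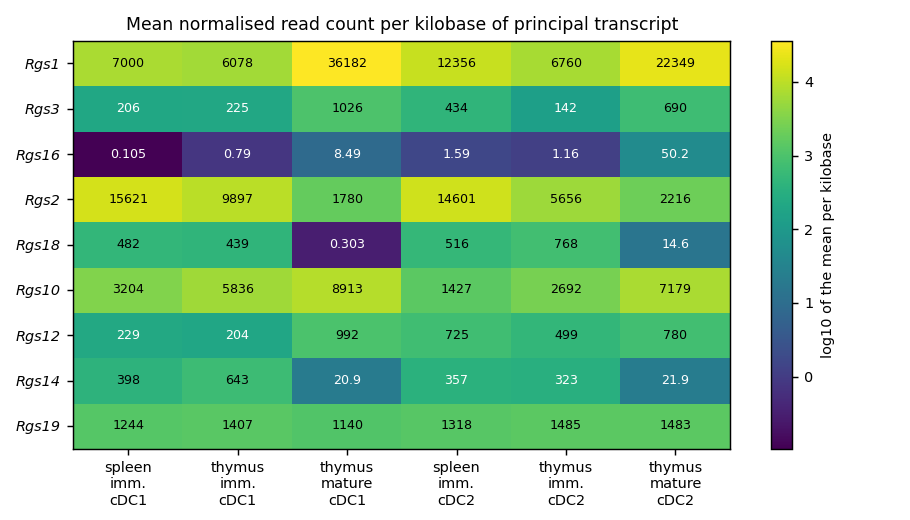
Mean normalised read count per kilobase of principal transcript for the 9 RGS genes (rows) in the 6 groups (columns), with the value printed in each cell and colour on a log10 scale. The brightest cell is Rgs1 in thymic mature cDC1 (36182) and the darkest Rgs16 in splenic immature cDC1 (0.105).

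For each member, the genes with the most similar pattern were sought over the 6 group means of log2(value + 1), each centred on its own mean, among 10216 genes with a mean of at least 100 normalised reads. Nearest to Rgs1 were Traf3 (root mean square difference 0.15) and Sipa1l2 (0.16), and nearest to Rgs2 were Tex9 (root mean square difference 0.19) and Tns3 (0.22). Nearest to Rgs3 were Nfkbib (root mean square difference 0.24) and Fut4 (0.26), and nearest to Rgs12 were St3gal2 (root mean square difference 0.13) and Nfkbie (0.18). Nearest to Rgs10 were Nagk (root mean square difference 0.18) and Sccpdh (0.19), and nearest to Rgs14 were Alox5ap (root mean square difference 0.25) and Slamf8 (0.26). Rgs16 and Rgs18 had larger differences from their neighbours, Atp1b1 (root mean square difference 0.57) and Rap2b (0.65) for the former and Atp8b4 (root mean square difference 0.53) and Kmo (0.55) for the latter. Their group means spanned 6.52 and 10.09 log2 units, against 2.61 for Rgs1, and the measure is not scaled to that span. Rgs19, nearly flat, lay next to Dis3l (root mean square difference 0.04) and Vps8 (0.04). The measure has 6 points and is a description.

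Genes of the same pathway outside the chosen 9 were tested with limma over all genes, with adjusted p by Benjamini-Hochberg, and brackets give the log2 change ± SE. In either direction 45.7% of all genes passed the criteria in mature cDC1 and 35.6% in mature cDC2, and the share of each list is read beside these. Of the 12 other RGS genes listed, 5 passed the filter, and the others never exceeded 5.60 normalised reads in any sample (Rgs7, Rgs8, Rgs13, Rgs17, Rgs20, Rgs21 and Rgs22). Rgs13 and Rgs21, which lie between Rgs2 and Rgs18, are among those that failed it. Mature cells were higher in 2 and lower in 1 of the 5 in cDC1, and higher in 3 and lower in 1 in cDC2. Rgs4 and Rgs6 passed the filter only through mature samples, where they are high, so their differences are given with no test, and the counts of higher genes include Rgs4 in both lineages and Rgs6 in cDC2. Rgs4, an R4 regulator best known from brain, read 0, 2.50, 0 and 4.04 in thymic immature and 11.1, 36.4 and 31.2 normalised reads in thymic mature cDC1 (log2 difference 3.57 ± 0.72). Rgs5, known from pericytes, rose in mature cDC1 (2.26 ± 0.79, adjusted p = 0.0188), where mature replicate 3 read 122 and without it the call was lost. The mature cDC1 samples (7.37, 36.4 and 122) overlapped the thymic immature ones (1.69, 8.33, 7.80 and 10.1). Rgs5 also rose in mature cDC2 (2.43 ± 0.85, adjusted p = 0.023).

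Rgs6, of the R7 subfamily, had no read in the 14 samples of cDC1 and splenic cDC2. Mature cDC2 samples read 29.2, 32.7 and 55.7 and thymic immature ones 0, 8.04 and 0 (log2 difference 4.21 ± 0.68). Rgs11, of the same subfamily, fell in mature cDC1 (-2.98 ± 0.41, adjusted p = 3.33e-06) and mature cDC2 (-1.85 ± 0.44, adjusted p = 0.00178), from 54.1, 64.1, 40.6 and 36.4 to 5.53, 5.20 and 4.80 in cDC1. Rgs9 passed the test in none of the maturation and tissue comparisons, with log2 changes between -0.26 and 0.38. Rgs5 reached 10 normalised reads in thymic samples only, so its differences between thymus and spleen are given with no test. They were 1.99 ± 0.73 in immature cDC1 and 3.22 ± 0.85 in immature cDC2, higher in the thymus. In cDC1 the thymic samples (1.69, 8.33, 7.80 and 10.1) overlapped the splenic ones (0, 0.986, 0 and 4.01). Rgs11 was lower in the thymus than in the spleen in cDC2 (-1.38 ± 0.44, adjusted p = 0.0314). Rgs4, given no test, went from 0 reads in splenic to 2.13, 8.70 and 1.56 normalised reads in thymic immature cDC2, all under the filter value of 10. Rgs4 and Rgs5 were counted by at most 1 read per splenic cDC2 sample.

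Of the Gi family of alpha subunits, 5 of 8 were tested, 60.0% were called in cDC1 and 20.0% in cDC2, and Gnai3, a widely expressed Gi alpha subunit, rose in mature cDC1 (1.17 ± 0.17, adjusted p = 5.08e-06) and mature cDC2 (1.21 ± 0.18, adjusted p = 1.22e-05). Its group means were 3864 ± 428 in thymic immature and 8678 ± 1083 in thymic mature cDC1. In cDC1 2 of the family were lower in mature cells (Gnao1, -3.57 ± 0.67 and Gnat2, -2.07 ± 0.91), both named after their values were seen. Gnao1 had 205 reads in thymic immature and 14 in mature cDC1. It passed the filter only with the thymic immature cDC1 samples, where it is high, so its difference is given with no test. The share called in cDC1 includes it. In cDC2 Gnai3 alone passed the criteria. Of the 4 Gq family subunits, 25.0% were called in cDC1 and 50% in cDC2. In cDC2 Gna14, named after its values were seen, fell (-4.32 ± 1.11, adjusted p = 0.00307). Gna15, a Gq family subunit of blood cells, fell from 2466, 2975, 2876 and 1894 to 3.69, 3.47 and 28.0 in cDC1 (-8.21 ± 0.48, adjusted p = 1.06e-11) and fell less in cDC2 (-4.07 ± 0.51, adjusted p = 1.55e-06). The difference between these effects was 4.15 ± 0.70, adjusted p = 0.000481. It was higher in the thymus than in the spleen in cDC1 (1.62 ± 0.44, adjusted p = 0.017) and cDC2 (2.87 ± 0.51, adjusted p = 0.000357). Of the 4 subunits of the Gs and G12 families none passed the criteria in limma, edgeR or DESeq2 in either maturation comparison, and 2 in cDC1 and 1 in cDC2 had an unadjusted p under 0.05.

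Of the 10 beta and gamma subunits tested, 2 rose and 2 fell in mature cDC1 and 3 rose and 1 fell in mature cDC2, 40.0% called in each, near the share of all genes. Gnb4, a beta subunit, had group means of 69.0 in splenic cDC2, 531 in thymic immature cDC2 and 11915 in mature cDC2, a rise with maturation of 4.51 ± 0.19, adjusted p = 4.75e-13. It was also higher in the thymus than the spleen in immature cDC2 (2.91 ± 0.19, adjusted p = 1.25e-09) and cDC1 (2.01 ± 0.17, adjusted p = 3.45e-08). Gng4 read 3.38, 2.50, 0 and 0 in thymic immature and 896, 613 and 1250 in thymic mature cDC1 (log2 difference 8.80 ± 0.65), and since no immature sample reached 10 normalised reads it entered the fit through mature samples alone, is among the counted rises and is given no test. Gng2 fell from 3227, 3012, 2962 and 3598 to 86.6, 98.8 and 134 (-4.91 ± 0.28, adjusted p = 6.43e-12). In cDC2 the log2 difference of Gng4 was 3.33 ± 0.70. Gng12 was higher in thymic than splenic immature cDC2 (1.60 ± 0.17, adjusted p = 1.00e-06).

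Receptor kinases and arrestins, which end signalling at the receptor, numbered 7, of which 2 rose and 2 fell in mature cDC1 (57.1% called) and 3 rose and 1 fell in mature cDC2 (57.1%). The arrestins took opposite directions. Arrb1 fell from 4698, 4190, 3555 and 3815 to 280.2, 456 and 272 in cDC1 (-3.63 ± 0.19, adjusted p = 2.49e-12) and fell in cDC2 (-1.85 ± 0.21, adjusted p = 3.00e-07), whereas Arrb2 rose from 3486, 3454, 3973 and 2848 to 8646, 9249 and 10886 in cDC1 (1.48 ± 0.16, adjusted p = 9.08e-08). Grk5, a receptor kinase, rose in mature cDC2 (1.47 ± 0.14, adjusted p = 5.30e-08). Grk3 was lower in thymic than splenic immature cDC2 (-1.40 ± 0.20, adjusted p = 2.49e-05), with samples at 8556 to 12705 and 26614 to 30511.

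Of 7 other G protein modulators, 2 rose and 1 fell in cDC1 (42.9% called) and 1 rose and 1 fell in cDC2 (28.6%), at or below the share of all genes. Gpsm2, a GoLoco protein that orients the dividing cell, fell in mature cDC1 (-6.62 ± 0.57, adjusted p = 3.29e-09) and cDC2 (-4.11 ± 0.61, adjusted p = 1.12e-05). It was higher in the thymus than in the spleen in immature cDC1 (3.21 ± 0.52, adjusted p = 0.000174) and cDC2 (2.93 ± 0.61, adjusted p = 0.00143). Rap1gap, which inactivates the small GTPase Rap, rose in cDC1 (4.46 ± 0.44, adjusted p = 2.73e-08) and cDC2 (3.12 ± 0.47, adjusted p = 1.47e-05). Among 3 RhoGEFs with an RGS-like domain, Arhgef12 alone passed the criteria, rising in cDC1 (2.68 ± 0.22, adjusted p = 1.98e-09) and cDC2 (2.32 ± 0.24, adjusted p = 9.59e-08).

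Of 12 effectors tested, 2 rose and 6 fell in mature cDC1 (66.7% called), and 3 rose and 3 fell in mature cDC2 (50%). Adcy6, an adenylyl cyclase that Gi alpha subunits inhibit, rose from 325, 223, 240.3 and 269.8 to 51160, 43284 and 63818 in cDC1 (7.63 ± 0.25, adjusted p = 1.49e-15) and from 717, 881 and 726 to 47377, 44114 and 39239 in cDC2 (5.81 ± 0.26, adjusted p = 8.95e-13). It was also higher in thymic than splenic immature cDC1 (1.73 ± 0.23, adjusted p = 1.44e-05) and cDC2 (4.00 ± 0.26, adjusted p = 1.08e-09). Plcb2, a phospholipase C driven by Gq and by beta-gamma subunits, fell from 7370, 6255, 5936 and 6103 to 251, 177 and 304 in cDC1 (-4.74 ± 0.24, adjusted p = 1.53e-12) and fell in cDC2 (-3.69 ± 0.26, adjusted p = 4.94e-10). Pik3r6, a subunit of a phosphoinositide 3-kinase that beta-gamma subunits switch on, was higher in the thymus than in the spleen in cDC1 (1.62 ± 0.18, adjusted p = 1.77e-06) and cDC2 (2.10 ± 0.21, adjusted p = 3.64e-07).

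Of 21 Gi-coupled chemoattractant and lipid receptors tested, 4 rose and 14 fell in mature cDC1 and 2 rose and 13 fell in mature cDC2, that is 85.7% and 71.4% called, with median log2 changes of -3.04 and -2.10. Over all genes 21.3% and 18.6% were higher and 24.5% and 17.0% lower, and the medians were -0.04 and 0.04. Ccr7, the sort gate, is counted among the rises and calls of both lineages, where its rise was fixed by the sort. It read 92491, 115572 and 91722 in mature cDC2. Cxcr3 was counted by 0, 0 and 1 reads in mature cDC1 against 700, 758, 482 and 431 in thymic immature cDC1, and Ccr2 fell in cDC1 (-7.69 ± 0.72, adjusted p = 1.23e-08) and cDC2 (-4.26 ± 0.77, adjusted p = 0.000109). In immature cells, 3 receptors were lower in the thymus in cDC1, and 7 were higher and 1 lower in cDC2. Over all genes, 4.26% were higher and 4.52% lower in the thymus in cDC1, and 8.3% were higher and 5.87% lower in cDC2. Ccr1 showed both directions, lower in thymic cDC1 (-2.08 ± 0.44, adjusted p = 0.00249) and higher in thymic cDC2 (2.79 ± 0.51, adjusted p = 0.000453). Cx3cr1 was lower in thymic cDC1 (-2.77 ± 0.47, adjusted p = 0.000269), and P2ry14, a receptor for sugar nucleotides, was higher in thymic cDC2 (3.88 ± 0.42, adjusted p = 9.42e-07).

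**Figure D5:**
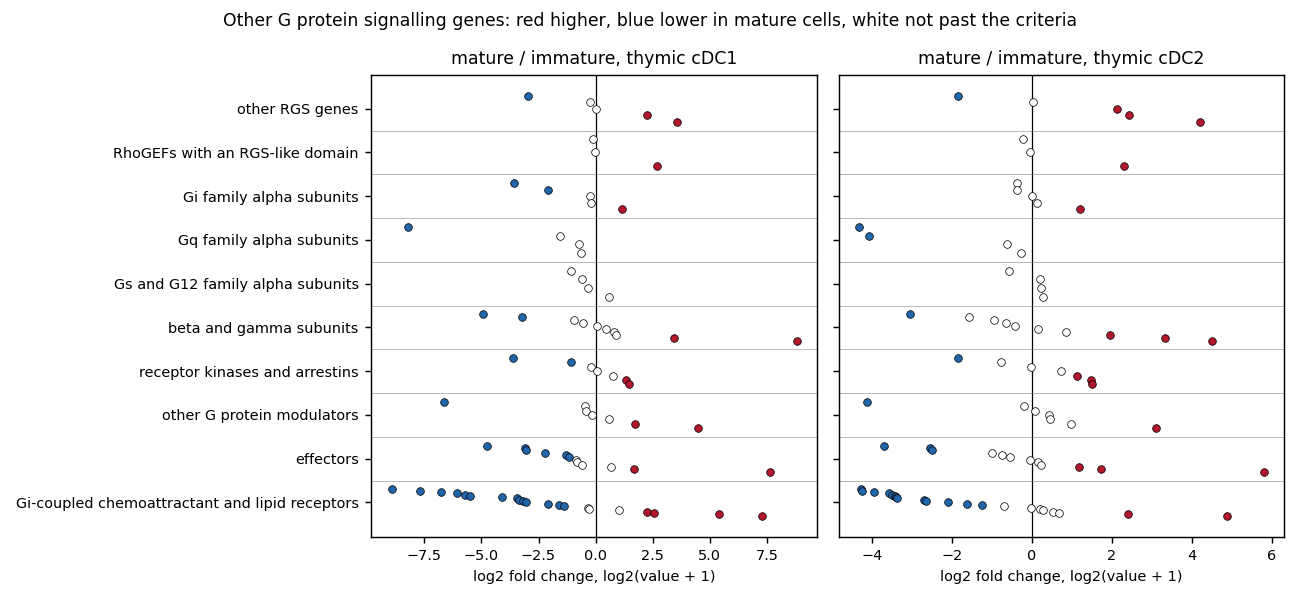
Log2 fold changes of 78 other G protein signalling genes, by list, between mature and immature thymic cDC1 (left) and cDC2 (right), with genes past the criteria in red (higher in mature cells) or blue (lower) and the rest in white. The receptors hold 14 of the 29 blue points in cDC1 and 13 of the 22 in cDC2.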

How the data were processed

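Libraries were made with a stranded mRNA kit and sequenced as paired ends. The authors aligned reads with STAR (2.6 in the submitters' processing notes) to mm10, counted them per gene with HTSeq-count and normalised them with DESeq2 (1.24.0). The deposited signal per gene and library is a normalised read count. Dividing by the smallest step in each library returned whole reads for 100% of values, and these reads gave the depths and the edgeR (4.0.16) and DESeq2 (1.42.0) alternatives. Because the files hold normalised values, limma (3.58.1, R 4.3.3, trended eBayes) was the main test, on log2(value + 1), with 1 mean per group over 20 samples and 14970 genes with at least 10 normalised reads in at least 3 samples. A call needed a log2 change past 1 in either direction with a Benjamini-Hochberg adjusted p under 0.1. Code was tested on simulated data. Members and lists were chosen with earlier results of these data known. Of the signalling lists, the text names all other RGS genes that passed the filter and, per list and comparison, called genes with the largest changes, a mean of at least 100 and no overlap. Alternatives were 20 leave-one-out fits and 11 others. Intervals and floors cover counting error only. Replicates may be technical, so p-values measure the spread between these samples.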

Additional observations from a re-analysis of the deposited data

Results flagged for a closer look

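In groups of 4, a sample far from the other three was found in 10 of 70 checks, where chance gives about 1 in 20. For 2 of the 10, Rgs16 and Rgs4, the flag is a level of single reads against 0 in the others and says little. For the members, Rgs1 in splenic immature cDC1 replicate 1 read 57394 (others 16031 to 17543). Rgs3 in thymic immature cDC1 replicate 4 read 597 (others 939 to 989), and Rgs14 in the same sample read 1205 (others 1614 to 1621). Splenic immature cDC1 replicate 3 stood apart for Rgs18 at 437 (others 1135 to 1208) and for Rgs12 at 1783 (others 1013 to 1137). Rgs19 in thymic immature cDC1 replicate 3 read 2456 (others 2001 to 2025), and Rgs16 in splenic immature cDC1 replicate 2 read 0.986 (others 0). Among other signalling genes, Pik3r6 in splenic immature cDC1 replicate 3 read 246 (others 196 to 202), Ccr1 in thymic immature cDC1 replicate 4 read 23.2 (others 8.33 to 10.1), and Rgs4 in the merged splenic immature cDC1 replicates 4 and 5 read 0.318 (others 0).

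The maturation effect met the criteria for a difference between the lineages for 12 of 27 named signalling genes, beside 13.6% of all genes tested. This is limma's interaction term over all genes, given as cDC2 minus cDC1 on the log2 scale. The named genes other than RGS genes were picked for large changes in the maturation and tissue comparisons, so the count is a description. A smaller fall in cDC2 was seen for Gna15 (4.15, adjusted p = 0.000481), Gng2 (1.88, adjusted p = 0.00404), Arrb1 (1.78, adjusted p = 0.000239) and Gpsm2 (2.51, adjusted p = 0.0519). The same held for Plcb2 (1.05, adjusted p = 0.0580), Cxcr3 (6.83, adjusted p = 3.16e-07) and Ccr2 (3.43, adjusted p = 0.0357). Gng4, which passed the filter only through mature samples, gave -5.47 and is listed with no test. A smaller rise in cDC2 was seen for Adcy6 (-1.82, adjusted p = 0.00193) and the sort gate Ccr7 (-2.41, adjusted p = 0.00127). Gnb4 rose more in cDC2 (1.08, adjusted p = 0.00902). For Rgs6, which has no read in cDC1 and passed the filter only through mature cDC2, the term (4.21) repeats the cDC2 difference and is no test. The tissue effect differed for Grk3 (-1.12, adjusted p = 0.0121), Adcy6 (2.27, adjusted p = 0.000330), Ccr1 (4.87, adjusted p = 0.000122) and P2ry14 (4.68, adjusted p = 1.60e-05). Over all genes tested, 4.98% met the criteria for a difference of the tissue effect.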

How the results depend on the processing

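No called value changed sign under the alternatives run for it, at most 31 per result, since the replicate block was run for the immature comparisons of cDC2 with cDC1 only and a fit of only the groups compared could not be made for the differences of effects. Of the counts of members or signalling genes, 475 stayed within 1.5 times the main value and 7 did not. Among lane 8 libraries alone, signalling genes called were 6 in place of 12 for thymic versus splenic immature cDC1, 15 in place of 26 for splenic immature cDC2 versus cDC1, 12 in place of 22 for the difference of the maturation effect and 4 in place of 7 for that of the tissue effect. Fewer samples enter there. For the tissue effect, leaving out a replicate gave 6 to 11, the highest without thymic mature cDC1 replicate 1. Members past the criteria for thymic immature cDC2 versus cDC1 were 1 to 2 when a replicate was left out, with Rgs10 lost without thymic immature cDC1 replicate 3. For thymic mature cDC2 versus cDC1 a pseudocount of 0.1 left 1 of 2 (Rgs16 lost). The cause was not tested. Of 63 pairs of a member and a comparison, 8 changed side under at least 1 alternative. Besides these, Rgs1 passed in the spleen between lineages without cDC1 replicate 1 or cDC2 replicate 3 and with every library as its own sample, and for thymus versus spleen in cDC2 without splenic replicate 3. Rgs16 failed in the spleen without cDC2 replicate 1 or cDC1 replicate 4, with a pseudocount of 8 and on lane 8 alone. Rgs10 passed for thymus versus spleen in cDC2 without splenic replicate 1 and on lane 8 alone, and Rgs14 in mature cells without cDC1 replicate 1 and in thymic immature cells with the replicate block. Of named signalling values, 42 lost and 8 gained a call, and 1810 stayed on their side of the criteria, called or not. With the library label number as a replicate block, members past the criteria were 4 for splenic and 3 for thymic immature cDC2 versus cDC1 (main 4 and 2), and signalling genes called were 29 and 36 (main 26 and 33). Same-numbered samples correlated between -0.08 and 0.46 in the spleen and between -0.15 and 0.28 in the thymus. Different-numbered samples correlated between -0.49 and 0.24 in the spleen and between -0.22 and 0.26 in the thymus. The ranges overlapped, but the highest value in each tissue came from a same-numbered pair, so pairing is not settled. The main fit did not pair samples. Depth limits Rgs16 in immature cells and Rgs18 in mature cDC1, where single reads set the values.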
